A study of Arabidopsis thaliana with 148 samples.

Results

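Heat applied in the subjective morning was examined through the messages on ribosomes. The comparison set 3 libraries of ribosome-bound mRNA from heated seedlings against 3 from control seedlings, all harvested at Zeitgeber time (ZT) 51, and they were chosen by the time, treatment and kind of RNA in the labels. They are 6 of 148 libraries in the series and 6 of 100 in its time course. The heated group received 37 °C for 1 h, ending at ZT51, which is 3 h after the start of the subjective day. The control group stayed at 22 °C. Every group carried the transgene p35S:HF-RPL18, so an epitope-tagged ribosomal protein L18 was made under the 35S promoter, which is active in most plant cell types but not evenly in all of them, and no untagged line was used here. Whole seedlings of Arabidopsis thaliana on medium with sucrose saw alternating light and dark of 12 h each during the first 10 days, constant light from day 11 and the heat on day 13.

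The ZT51 comparison was set against further libraries. One set is the same heat treatment at ZT48, ZT54, ZT57, ZT60, ZT63, ZT66 and ZT69, with 41 ribosome-bound heat and control libraries. The other is total polyadenylated mRNA of ZT51 seedlings, with 3 heated and 3 control libraries. Pulling down tagged ribosomes with the messages on them is called translating ribosome affinity purification (TRAP), and the mRNA obtained is called TRAP mRNA below. A gene's heat effect is its log2 level in heat minus its log2 level in control. The questions were which genes had a TRAP heat effect at ZT51 that differed from the other times of day, and which had one that differed from total mRNA of the same time.

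In plants, heat shock factors bind heat shock elements in promoters and switch on chaperone genes within minutes, while many other messages leave the ribosomes. The circadian clock gates such responses: morning factors such as CCA1 and LHY, daytime pseudo-response regulators (PRRs) and evening genes such as TOC1 and ELF4 repress and activate each other, so the control level of many genes depends on the hour. A heat effect can therefore differ between times of day through the heated level, the control level or both.

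The 12 libraries of ZT51 held between 6324387 counts (a total mRNA control) and 12939305 counts (another total mRNA control), and the 6 TRAP libraries between 8228020 and 12137413. Depth differed over the day: TRAP libraries of ZT48 to ZT57 had a median of 9398937 counts (n = 24) and those of ZT60 to ZT72 a median of 5902330 (n = 26). Chaperone genes took 25 to 26.8% of the counts of the TRAP heat libraries, against 0.287 to 0.301% in the TRAP controls, and 12.6 to 13.8% in total heat libraries, against 0.196 to 0.207% in total controls. Genes of the chloroplast and mitochondrial genomes made up 0.330 to 0.371% of counts in TRAP heat and 0.287 to 0.389% in TRAP control libraries, but 31.6 to 36.5% in total heat and 26.9 to 28.8% in total control libraries. Shoot genes (light harvesting and Rubisco) took 8.38 to 8.83% of counts in TRAP heat libraries and 13.3 to 14.7% in TRAP controls. The 8 root markers summed to 0.107 to 0.127% in TRAP heat and 0.240 to 0.262% in TRAP controls, mostly from PYK10, and 7 of the 8 had counts in every ZT51 library, while COBL9 had 0, 1 and 0 counts in TRAP heat and 5, 2 and 2 in TRAP control. These are shares of raw counts. With scaled libraries (edgeR, adjusted p below 0.05), 15 of 25 shoot genes were higher in TRAP heat and 1 lower, with a median heat effect of 0.50. Of 7 root markers tested, 1 was higher and 1 lower, with a median of 0.10. The part of these markers in the results was not tested. At ZT51 the libraries numbered 3 deviated from their group means together (correlation 0.449 between heat and control in TRAP and 0.584 in total mRNA). Counts of calls are also given without them. Numbers 1 and 2 were not told apart between heat and control. TRAP heat 1 correlated with control 1 by 0.198 and with control 2 by 0.346. In total mRNA these values were 0.307 and 0.411. In whole seedlings, fewer cells of a type and less RNA per cell cannot be told apart. Whether replicates came from separate cultures is not in the labels, and the p-values therefore rest on a spread between libraries that may be technical.

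Heat at ZT51 changed most of the ribosome-bound messages that could be tested. Of 21079 genes, 12565 passed the test (59.6%), 6263 of them higher in heat (29.7%) and 6302 lower (29.9%), and the median heat effect over all genes was −0.06 (quasi-likelihood test of edgeR). In all counts that follow, a gene passed where its p-value, adjusted over all genes by the Benjamini-Hochberg method, was under 0.05. Heat and control libraries did not overlap in 11689 of the 12565 called genes (93%). The same libraries selected these genes, so the share is a description and no further test. Levels are given as scaled CPM, that is counts relative to the size of each library, and are compared within a gene, not between genes.

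Chaperone messages rose furthest. Of 18 small heat shock protein genes tested, whose products hold unfolding proteins, 17 rose, with a median heat effect of 11.84 over the list. HSP21 (AT4G27670), a chloroplast member, had 3859, 3467 and 4088 CPM in TRAP heat libraries 1 to 3, against 0.474, 0.740 and 0.0558 CPM in the TRAP controls. The heat effect was 13.13 ± 1.18 (log2 ± SE, adjusted p = 1.22e-11), the highest of all genes. Of 35 large chaperone and co-chaperone genes 32 rose and 1 fell, with a median of 4.76. HSP101 (AT1G74310), the disaggregase that dissolves aggregates after heat, had 13384, 11827 and 15315 CPM in heat, against 7.66, 9.01 and 8.66 CPM in controls. Its groups did not overlap, and the heat effect was 10.64 ± 0.85 (adjusted p = 6.34e-13).

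Among 20 heat shock factors the median was 1.75, with 12 higher in heat, 2 lower and 6 that did not pass. HSFA2 (AT2G26150), which prolongs the response and serves acquired thermotolerance, had 5565, 5197 and 5963 CPM in heat, against 0.790, 0.987 and 0.335 CPM in controls, a heat effect of 12.95 ± 1.18 (adjusted p = 1.51e-11). HSFB1 (AT4G36990), a repressor class factor, rose by 5.58 ± 0.15, HSFA3 (AT5G03720), a factor downstream of the dehydration-responsive DREB2 proteins, by 3.26 ± 0.33 and HSFA1D (AT1G32330), one of the master factors, by 2.11 ± 0.17. The other master factors HSFA1A (−0.33 ± 0.31, adjusted p = 0.377) and HSFA1B (0.01 ± 0.15, adjusted p = 0.983) did not pass the test, and HSFA1E (AT3G02990) rose by 3.67 ± 0.18. Of these 4 master factors, 2 passed the test.

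Other groups rose, fell or mostly did not pass. Over all genes tested, 29.7% were higher in heat, 29.9% lower and 40.4% did not pass. Of 17 genes of protein folding in the endoplasmic reticulum 16 rose and 1 fell. Among them the chaperone BIP1 had a heat effect of 4.61 ± 0.18 (adjusted p = 1.93e-27). Of 19 genes of aliphatic glucosinolate synthesis, which make defence compounds, 0 rose and 15 fell, with a median of −1.69. AOP2, a side-chain gene whose product is annotated as truncated in the reference strain, had 1.42, 1.39 and 0.520 CPM in heat, against 26.8, 25.9 and 28.1 CPM in controls. Of 25 cell division genes 20 fell and 2 rose, with a median of −0.95, and the histone gene HTR13 (AT5G10390) had the lowest heat effect named, −5.48 ± 0.38. Of 42 cytosolic ribosomal protein genes 25 did not pass, 11 fell and 6 rose, among them RPL18B (AT3G05590) at 0.97 ± 0.16. RPL18B belongs to the family of the tagged protein, so reads of transgene and gene may not be separable.

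The heat effect at ZT51 differed from the mean of the other 7 times in 224 genes (1.06% of 21079), 152 with a higher effect (0.721%) and 72 with a lower one (0.342%), and the median difference over all genes was 0.03. A higher effect was mostly a stronger rise: 114 of the 152 genes rose at ZT51, 16 fell and 22 did not pass. Of the 72 lower ones 29 rose, 26 fell and 17 did not pass. The control level at ZT51 was the lowest of the 8 times in 46 of the 152 genes (30.3%, against 8.60% of all genes) and the highest of the 8 times in 30 of the 72 (41.7%, against 9.83% of all genes). The heated level at ZT51 was the highest of the 8 times in 26 of the 152 (17.1%, against 9.47% of all genes) and the lowest in 13 of the 72 (18.1%, against 8.28%). The control level differed more from the other times than the heated level did in 68 of the 152 (44.7%) and in 49 of the 72 (68.1%), against 43.8% of all genes. These shares describe genes that the same libraries selected. Total mRNA showed the same sign of the difference in 151 of the 152 and 68 of the 72 genes, and it passed its own test in 57 and 24 of them, where 140 genes passed in total mRNA (0.629% of 22256). Leaving out 1 of the 6 ZT51 TRAP libraries gave 134 to 172 genes (134 without control 3, 143 without control 1 and 149 without control 2), and leaving out both libraries numbered 3 gave 92.

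Clock genes and their partners stood on both sides. Of 32 clock genes tested, 2 had a higher heat effect at ZT51 than at other times and 5 a lower one, with a median of 0.04. Of 23 B-box and CDF factors 5 had a lower effect and none a higher one, and of 13 PIF and auxin genes 2 had a lower effect and 0 a higher one. LNK1, LNK3 and LNK4 encode partners of the morning factors. Promoters were searched for motifs that include the G-box, the evening element and the CCA1 site AAAAATCT, and binding to them was not tested. None of these motifs was found in the 300 bases upstream of LNK1, LNK4, PIF4, CDF1 or ELF4. The promoter windows of a few members are shown here because they hold such motifs. They were read from the TAIR10.1 RefSeq assembly at chr2:19245351-19245450 for CCA1, chr3:3923312-3923411 for LNK3, chr3:21830950-21831049 (minus strand) for PIF5, chr5:642082-642241 (minus strand) for PRR7 and chr5:24674766-24674865 for TOC1, and each is written 5′ to 3′ along the gene. Capitals mark the G-box (CACGTG), the evening element (AAAATATCT, or its reverse complement, as in TOC1) and, in PRR7, also a heat shock element (GAANNTTC).
CCA1: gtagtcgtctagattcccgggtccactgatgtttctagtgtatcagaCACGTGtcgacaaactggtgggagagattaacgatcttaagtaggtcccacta
LNK3: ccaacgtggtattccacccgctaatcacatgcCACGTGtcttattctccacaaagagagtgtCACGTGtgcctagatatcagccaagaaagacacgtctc
PIF5: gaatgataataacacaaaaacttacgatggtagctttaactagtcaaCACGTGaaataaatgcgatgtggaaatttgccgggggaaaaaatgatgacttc
PRR7: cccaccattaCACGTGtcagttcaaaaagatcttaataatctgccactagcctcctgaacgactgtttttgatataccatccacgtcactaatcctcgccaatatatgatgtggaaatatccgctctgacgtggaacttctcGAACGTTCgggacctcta
TOC1: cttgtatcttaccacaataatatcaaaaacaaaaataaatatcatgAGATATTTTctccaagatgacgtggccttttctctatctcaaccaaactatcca

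LNK1 (AT5G64170) had 274, 273 and 317 CPM in TRAP heat libraries at ZT51, against 77.0, 73.3 and 82.8 CPM in TRAP controls. The groups did not overlap, and the heat effect was 1.89 ± 0.096. Its effect over the day was 2.24 at ZT48, 1.89 at ZT51, 1.79 at ZT54, 2.73 at ZT57, 3.45 at ZT60, 4.83 at ZT63, 4.99 at ZT66 and 3.27 at ZT69, so that the ZT51 effect lay 1.44 ± 0.10 below the mean of the other times (adjusted p = 4.24e-16). The heated level ranged only from 195 CPM at ZT60 to 323 CPM at ZT48, while the control level was highest at ZT51 (77.7 ± 4.81 CPM, SD, n = 3) and lowest at ZT66 (7.26 ± 1.04 CPM, SD, n = 3). LNK3 (AT3G12320) had 119, 134 and 157 CPM in heat and 72.3, 65.9 and 72.7 CPM in controls at ZT51, an effect of 0.96 ± 0.12, which lay 1.45 ± 0.14 below the other times (adjusted p = 1.38e-11). LNK4 (AT5G06980) had 57.4, 67.3 and 80.6 CPM in heat and 68.0, 61.2 and 65.7 CPM in controls. Its groups overlapped at ZT51 (0.07 ± 0.13, adjusted p = 0.670), and the effect lay 1.62 ± 0.15 below the other times (adjusted p = 5.89e-11). All 3 genes thus had their highest control level of the 8 times at ZT51, and these calls passed without any 1 of the 6 libraries.

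**Figure D1:**
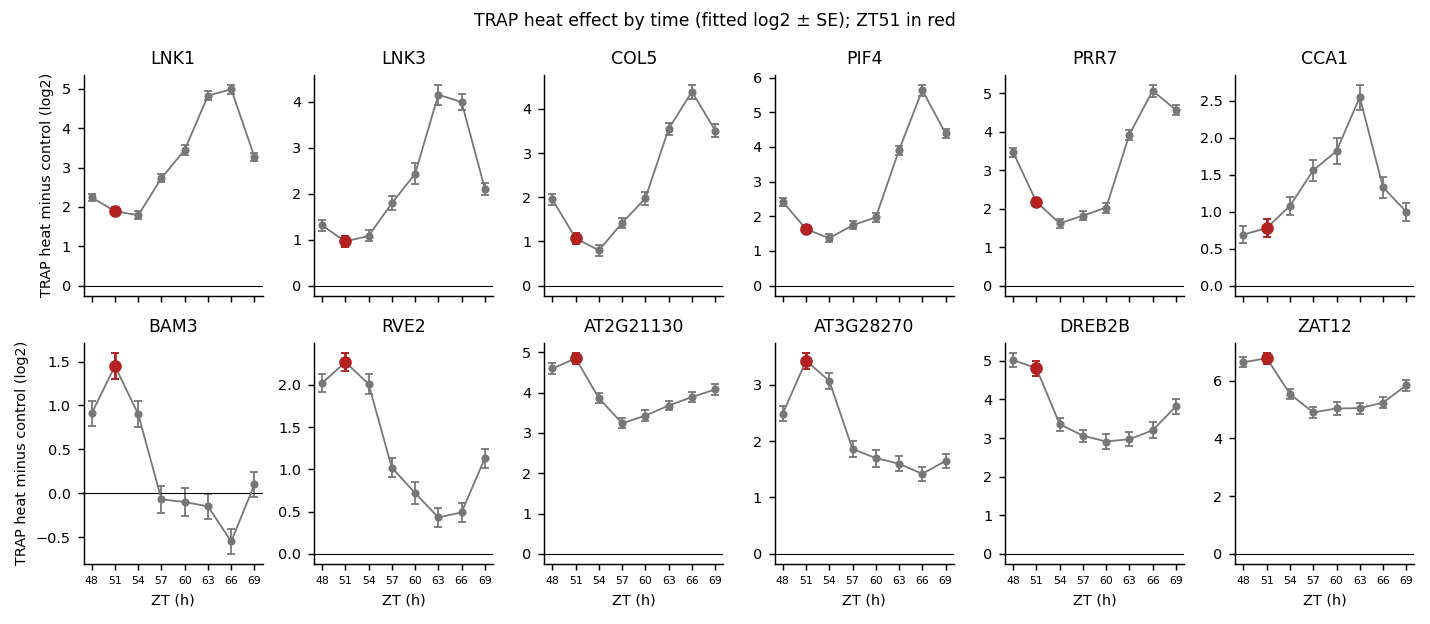
TRAP heat effect (heat minus control, log2, y axis) of 12 named genes at the 8 times of day (ZT in hours, x axis); points are fitted values, bars are SE, and ZT51 is red. LNK1, for example, sat at 1.89 at ZT51 and 4.99 at ZT66, whereas BAM3 sat at 1.45 at ZT51 and −0.55 at ZT66.

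Growth and daytime regulators also had smaller effects at ZT51 than the mean of the other times. PIF4 (AT2G43010), a growth-promoting factor of warm-temperature responses, had 207, 188 and 248 CPM in heat and 63.4, 67.4 and 76.1 CPM in controls, and its effect of 1.63 ± 0.11 lay 1.43 ± 0.12 below the other times (adjusted p = 6.32e-13). PIF5 (AT3G59060), its close relative, had 82.2, 83.3 and 88.3 CPM in heat and 78.3, 68.1 and 85.7 CPM in controls. The PIF5 groups overlapped at ZT51, and the effect of 0.13 ± 0.12 lay 1.14 ± 0.13 below the other times (adjusted p = 3.62e-09). PRR7 (AT5G02810), which represses morning genes in the day, had 142, 146 and 159 CPM in heat and 27.0, 33.1 and 38.3 CPM in controls. Its effect of 2.18 ± 0.11 lay 1.04 ± 0.12 below the other times (adjusted p = 5.40e-09), and it ranged from 1.62 at ZT54 to 5.07 at ZT66. COL5 (AT5G57660), a CONSTANS-like B-box protein, had 225, 227 and 323 CPM in heat and 118, 114 and 136 CPM in controls, with an effect of 1.07 ± 0.12, 1.45 ± 0.13 below the other times (adjusted p = 7.03e-12). CDF1 (AT5G62430), a DOF factor that delays flowering, had an effect of 2.14 ± 0.13, 0.94 ± 0.14 below (adjusted p = 1.46e-05). BBX28 (AT4G27310), another B-box protein, had 35.1, 36.3 and 41.1 CPM in heat and 44.1, 39.6 and 69.1 CPM in controls. Its groups overlapped, the effect at ZT51 was −0.45 ± 0.18 (adjusted p = 0.0298), and it lay 1.19 ± 0.21 below the other times (adjusted p = 5.35e-04). These 6 differences passed in each of the 6 sets that left out 1 ZT51 TRAP library, though the ZT51 effect of BBX28 itself did not pass without heat 1, heat 2 or control 3 (range −0.60 to −0.17).

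The higher side held an evening gene, a clock-related factor and a starch enzyme. ELF4 (AT2G40080), part of the evening complex, had 15.6, 13.5 and 15.8 CPM in heat and 18.5, 21.1 and 20.6 CPM in controls, so it was lower in heat at ZT51 with no overlap (−0.43 ± 0.13, adjusted p = 0.00333). At the other times it was lower still, from −0.92 at ZT54 to −1.60 at ZT57, and the ZT51 effect lay 0.84 ± 0.14 above their mean (adjusted p = 9.91e-05). The ELF4 control level was lowest at ZT51 (20.1 ± 1.39 CPM, SD, n = 3) and highest at ZT60 (117 ± 9.65 CPM, SD, n = 2). RVE2 (AT5G37260), a MYB-like relative of CCA1, had 90.4, 81.6 and 102 CPM in heat and 20.8, 18.4 and 17.6 CPM in controls. Its effect of 2.27 ± 0.11 was the highest of the 8 times and lay 1.15 ± 0.12 above the mean of the others (adjusted p = 3.31e-10). BAM3 (AT4G17090), a chloroplast beta-amylase that breaks down starch, had 217, 208 and 265 CPM in heat and 82.1, 80.1 and 89.1 CPM in controls, an effect of 1.45 ± 0.15. Its effect was 0.91 at ZT48 and 0.90 at ZT54 and between −0.55 and 0.10 from ZT57 on, so ZT51 lay 1.30 ± 0.16 above the mean (adjusted p = 1.33e-07). The ZT51 control of BAM3 stood at 83.8 ± 4.72 CPM (SD, n = 3), near its lowest level, and the control of ZT66 at 435 CPM. AT3G28270, which encodes a putative membrane protein, had 236, 254 and 218 CPM in heat and 23.8, 23.7 and 18.1 CPM in controls, with an effect of 3.43 ± 0.14, 1.46 ± 0.14 above the other times (adjusted p = 4.45e-11). HY5 (AT5G11260), a light-signalling factor, stood 0.58 above the other times (adjusted p = 0.0136) but did not pass without heat 1, heat 3, control 1 or control 3 (range 0.51 to 0.70).

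**Figure D2:**
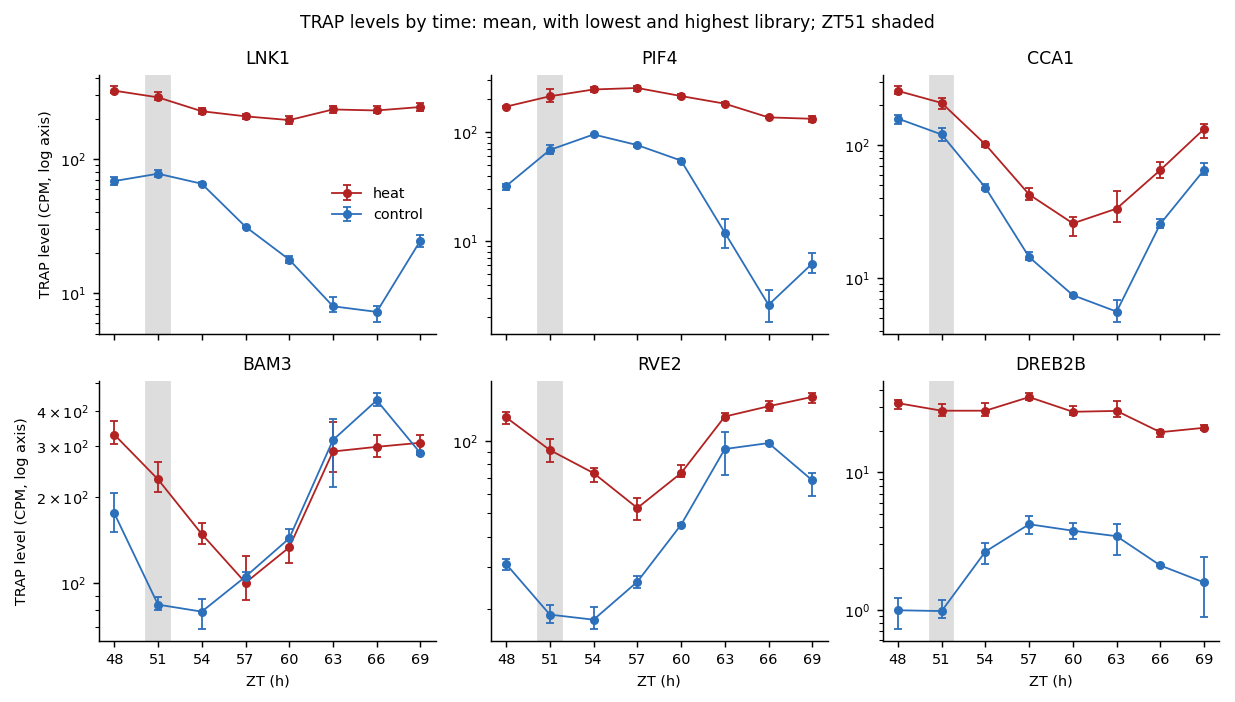
TRAP levels (CPM, log axis) of 6 genes by time (ZT in hours) in heat (red) and control (blue); points are group means, bars run from the lowest to the highest library, and ZT51 is shaded. The LNK1 control runs from 7.26 CPM at ZT66 to 77.7 CPM at ZT51 while its heated level stays between 195 and 323 CPM.

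Several chaperones had a higher heat effect at ZT51 than at other times, by less than 1 log2 unit. The chaperone share of counts in TRAP controls was 0.287 to 0.301% at ZT51 and 0.248 to 0.619% over all times. Single controls stood above their group, such as ZT69 control 2 (0.619%, against 0.390 and 0.385%) and ZT54 control 2 (0.471%, against 0.251 and 0.248%). Only ZT51 libraries were left out singly, so the part of these controls in the differences was not tested. Among the 35 large chaperones 6 passed, all with a higher effect, with a median difference of 0.42 over the list beside 0.03 over all genes. HSP90.5 (AT2G04030), the HSP90 of the chloroplast, had 2082, 2057 and 2198 CPM in heat and 81.2, 79.6 and 75.6 CPM in controls. Its effect of 4.74 ± 0.11 lay 0.53 ± 0.11 above the other times (adjusted p = 0.00169), a call that held in each of the 6 sets that left out 1 library but not without both numbered 3 (0.46, adjusted p = 0.0943). The chloroplast HSP70 gene cpHsc70-2 (AT5G49910) lay 0.58 ± 0.10 above (adjusted p = 2.48e-04). Against ZT48, ZT54 and ZT57 only, neither HSP90.5 (0.26, adjusted p = 0.623) nor cpHsc70-2 (0.19, adjusted p = 0.786) passed. HSP70-3 (0.58, range 0.47 to 0.68), the co-chaperone J2 (0.43, range 0.32 to 0.51) and HSFA1E (0.85, range 0.62 to 1.01) each passed but lost the call without control 1, control 2 or heat 3. HSP18.5, a small heat shock protein (0.69, range 0.50 to 0.84), lost it without control 3, heat 1 or heat 2. HSP90.3, a cytosolic HSP90 (0.56, range 0.49 to 0.60), lost it without any 1 of the 6 libraries, and cpHsc70-1 (0.44, range 0.40 to 0.48) kept it only when heat 2 was left out. Among 25 light harvesting and Rubisco genes 4 had a lower heat effect at ZT51 than at other times: LHCB4.2 (−0.55), LHCB1.5 (−0.50), LHCB3 (−0.50) and LHCB2.2 (−0.60), which are antenna proteins of photosystem II. LHCB4.2 lost the call without heat 2 or control 3 (range −0.63 to −0.39). LHCB1.5 lost it without control 1, control 2, heat 2 or heat 3 (range −0.53 to −0.48), LHCB3 kept it only when control 1 was left out (range −0.52 to −0.48), and LHCB2.2 lost it without any 1 library (range −0.64 to −0.57). Without both libraries numbered 3 HSP70-3 (0.57, adjusted p = 0.117) and LHCB4.2 (−0.43, adjusted p = 0.197) did not pass either. Against ZT48, ZT54 and ZT57 only, none of the 4 antenna genes passed, and the sign turned in LHCB1.5 (0.03) and LHCB3 (0.02).

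Fewer genes differed from the daytime alone. Against ZT48, ZT54 and ZT57, whose libraries were deeper than those of the later times, 28 of 21079 genes differed, 23 higher and 5 lower. Of the 152 higher genes 22 passed here too and all 152 had the same sign, with a median of 0.50 (0.66 against all 7 times). Of the 72 lower genes 4 passed and 67 had the same sign, with a median of −0.41 (−0.76 against all 7 times). ZT48, ZT54 and ZT57 are among the 7 times, and the ZT51 TRAP libraries are the same. The shared signs and passes are therefore partly set by the selection and are given as a description. AT2G21130, BAM3, AT3G28270, RVE2 and ELF4 were among the genes that passed, at 0.96, 0.87, 0.96, 0.58 and 0.73 (adjusted p = 5.16e-04 for AT2G21130), and no LNK or PIF gene named here did: LNK1 stood at −0.37 (adjusted p = 0.240), LNK4 at −0.62 (adjusted p = 0.0936) and PIF4 at −0.21 (adjusted p = 0.801). AT5G07330, with 827, 585 and 898 CPM in heat and 0.632, 1.17 and 1.90 CPM in controls, stood at 1.46 (adjusted p = 0.0402) against those times and at 1.43 against all 7, and lost the second call without control 1 or control 2 (range 1.18 to 1.88). An F test over the 8 times passed in 1484 genes (7.04% of 21079), among them 138 of the 152 and 67 of the 72. It used the TRAP libraries that had selected these genes.

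TRAP and total mRNA were then set against each other at ZT51. Of 22256 genes, 652 had a different heat effect in TRAP than in total mRNA (2.93%), 248 with TRAP above total (1.11%) and 404 with TRAP below total (1.82%), and the median difference was 0.05. Heat changed 12353 genes of total mRNA at ZT51 (55.5%), raising 27.1% and lowering 28.4%. With TRAP above total, 114 genes rose in both, 63 rose in TRAP alone, 42 fell in total mRNA alone, 16 rose in TRAP and fell in total mRNA, 12 fell in both and 1 passed in neither. With TRAP below total, 125 fell in TRAP alone, 83 rose in both, 83 rose in total mRNA alone, 68 fell in TRAP and rose in total mRNA, and 45 fell in both. Passing in 1 kind of RNA alone is not itself a test of the difference, which the 652 calls give. The count depended on pairing. Libraries of the same time, treatment and replicate number were taken to share a harvest, which the labels do not state. With this harvest as a block over both kinds of RNA, 1378 genes passed, 728 above and 650 below, and 651 of the 652 were among them. With the replicate number at each time as a block it was 874 genes, 389 above and 485 below. Without organelle genes the split was 192 above and 506 below (27.5% above, against 38.0%). Without TRAP control 1 it was 166 and 432 (27.8% above), and leaving out any 1 of the 12 libraries gave 471 to 711 genes. Without the libraries numbered 3 it was 235 genes, and in a fit on the 12 ZT51 libraries alone 315. It was 141 with libraries thinned to the smallest total of their kind of RNA. That total was 3783353 counts for TRAP and 1396305 for total mRNA, so total mRNA was left the shallower.

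**Figure D3:**
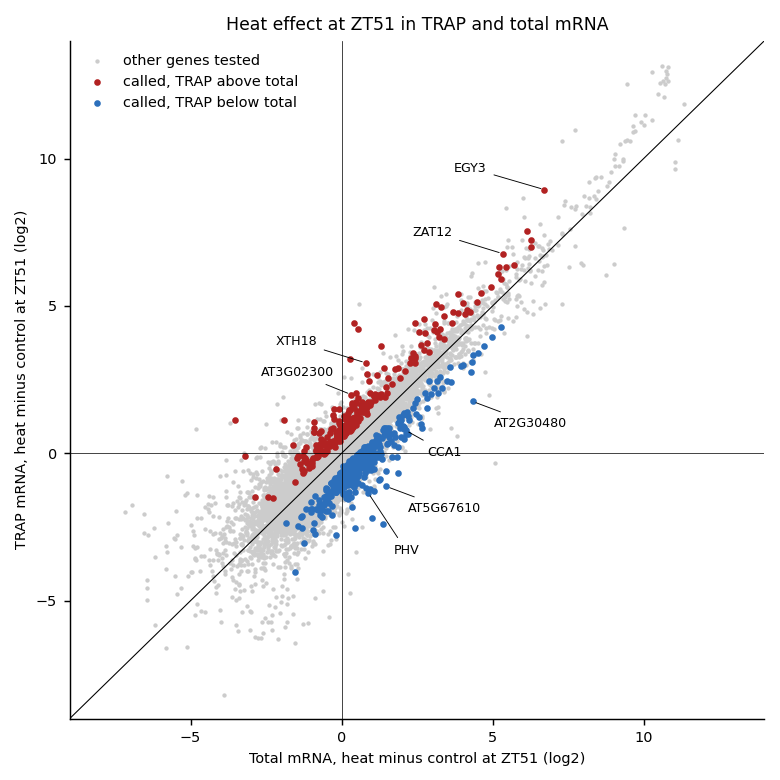
Heat effect at ZT51 (heat minus control, log2) in TRAP mRNA (y axis) against total mRNA (x axis), 1 point a gene; red points passed with TRAP above total and blue points with TRAP below total, grey points did not pass, and the diagonal marks equal effects. The called genes lie on both sides of the diagonal, with EGY3 2.24 above it and AT5G67610 2.61 below it.

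The genes with TRAP below total included some that fell in TRAP mRNA and rose in total mRNA. PHV (AT1G30490), a homeodomain-leucine zipper factor of leaf polarity, had 9.80, 6.93 and 7.28 CPM in TRAP heat and 21.2, 18.8 and 20.5 CPM in TRAP control, against 32.1, 25.7 and 43.7 CPM in total heat and 18.3, 18 and 19.3 CPM in total control. The heat groups lay below their controls in TRAP and above them in total mRNA, with no overlap in either. The effects were −1.34 ± 0.15 in TRAP and 0.88 ± 0.14 in total mRNA, a difference of −2.22 ± 0.22 (adjusted p = 2.32e-13). AT5G67610, a putative membrane protein gene, had 4.11, 4.03 and 3.82 CPM in TRAP heat and 9.32, 8.14 and 8.71 CPM in TRAP control, against 26.8, 26.8 and 29.0 CPM in total heat and 8.58, 10.8 and 9.72 CPM in total control. Here too the direction was opposite, with a difference of −2.61 ± 0.23 (adjusted p = 3.08e-15). AT2G30480 (uncharacterised) rose in both, by 1.76 ± 0.24 in TRAP and 4.34 ± 0.20 in total mRNA, a difference of −2.58 ± 0.32 (adjusted p = 6.04e-09). AT3G09360, annotated as a Brf1-like protein of the TBP-binding family, had an effect of −0.13 ± 0.16 in TRAP and 1.66 ± 0.16 in total mRNA (difference −1.79 ± 0.24, adjusted p = 2.37e-08). CSD3 (AT5G18100), a superoxide dismutase, rose by 0.85 in TRAP and 1.59 in total mRNA (difference −0.73 ± 0.15, adjusted p = 3.86e-04). These 5 calls passed without any 1 of the 12 libraries, but that of CSD3 not without the libraries numbered 3 (−0.56, adjusted p = 0.0964).

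TOC1 (AT5G61380), the evening clock gene whose promoter window is printed above, had 10.7, 9.58 and 7.28 CPM in TRAP heat and 13.3, 12.6 and 12.6 CPM in TRAP control, against 16.8, 12.4 and 18.3 CPM in total heat and 9.5, 11.5 and 13.6 CPM in total control. TRAP groups did not overlap and total groups did. The effect was −0.47 ± 0.14 in TRAP and 0.45 ± 0.14 in total mRNA, a difference of −0.92 ± 0.20 (adjusted p = 0.00124). Without the libraries numbered 3 neither this difference (−0.81, adjusted p = 0.0660) nor the TRAP heat effect itself (−0.37, adjusted p = 0.0524) passed. Of the 32 clock genes 2 lay below total mRNA, TOC1 and CCA1, and 1 above it, with a median of −0.07 over the list. The gene above was RVE8 (AT3G09600), a MYB-like activator of evening genes, which passed at 0.63 ± 0.19 and kept the call only when total control 2, total heat 3 or TRAP control 3 was left out (range 0.48 to 0.78). The light receptors PHYA (AT1G09570) and PHOT2 (AT5G58140) lay below total mRNA, PHOT2 by 0.48 ± 0.14 on the log2 scale (−0.48, adjusted p = 0.0357) and PHYA by 0.56 ± 0.16 (−0.56, adjusted p = 0.0314). PHYA lost the call without total control 2, total heat 3, TRAP control 3, TRAP heat 1 or TRAP heat 2 (range −0.68 to −0.38). PHOT2 lost it without total control 1 or 2, total heat 3, TRAP control 3, TRAP heat 1 or TRAP heat 2 (range −0.58 to −0.39).

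The genes with TRAP above total included a protease-like gene and splicing factors. EGY3 (AT1G17870), annotated as a putative metalloprotease related to EGY1, had 3554, 3483 and 3929 CPM in TRAP heat and 7.66, 9.99 and 4.52 CPM in TRAP control, against 1566, 1550 and 1762 CPM in total heat and 20.3, 19.3 and 7.21 CPM in total control. It rose in both with no overlap, by 8.95 ± 0.35 in TRAP and 6.72 ± 0.31 in total mRNA, a difference of 2.24 ± 0.38 (adjusted p = 3.36e-05). AT3G02300, of the RCC1 family, had 52.2, 59.3 and 69.5 CPM in TRAP heat and 12, 14 and 19 CPM in TRAP control, against 39.0, 43.3 and 56.1 CPM in total heat and 32.1, 31.1 and 48 CPM in total control. Only the TRAP groups stood apart, and the difference was 1.68 ± 0.18 (adjusted p = 1.10e-11). XTH18 (AT4G30280), a cell wall enzyme, had 11.9, 19.3 and 31.9 CPM in TRAP heat and 2.61, 2.71 and 2.12 CPM in TRAP control, against 17.3, 18.6 and 24.0 CPM in total heat and 12.9, 12.8 and 9.02 CPM in total control, a difference of 2.27 ± 0.47 (adjusted p = 0.00131). Without the libraries numbered 3, XTH18 did not pass (2.08, adjusted p = 0.0527).

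Of 14 splicing factor genes tested 11 rose in TRAP, with a median heat effect of 0.79, and 4 lay above total mRNA and none below. SCL33 (AT1G55310) had 267, 215 and 257 CPM in TRAP heat and 19.0, 17.6 and 21.3 CPM in TRAP control, against 187, 165 and 194 CPM in total heat and 26.0, 29.2 and 32.3 CPM in total control. Its effects were 3.67 ± 0.11 in TRAP and 2.64 ± 0.10 in total mRNA, a difference of 1.03 ± 0.14 (adjusted p = 5.96e-08). SR45A (AT1G07350) lay 0.87 ± 0.17 above total mRNA (adjusted p = 4.10e-04) and RS31 (AT3G61860) 0.81 ± 0.18 (adjusted p = 0.00148). SR30 (AT1G09140) lay 0.84 ± 0.18 above (adjusted p = 0.00179) and lost the call without total control 3 (0.59, the lowest of the 12 sets) and without the libraries numbered 3 (0.71, adjusted p = 0.0867). All 4 encode serine/arginine-rich splicing factors or relatives. BBX22 (AT1G78600), a light-regulated B-box protein, rose by 3.49 ± 0.13 in TRAP and 2.71 in total mRNA, and its call against total mRNA also held without any 1 library. Of the large chaperones 3 lay above total mRNA and none below, with a median of 0.43 over the list, beside 0.05 over all genes.

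**Figure D4:**
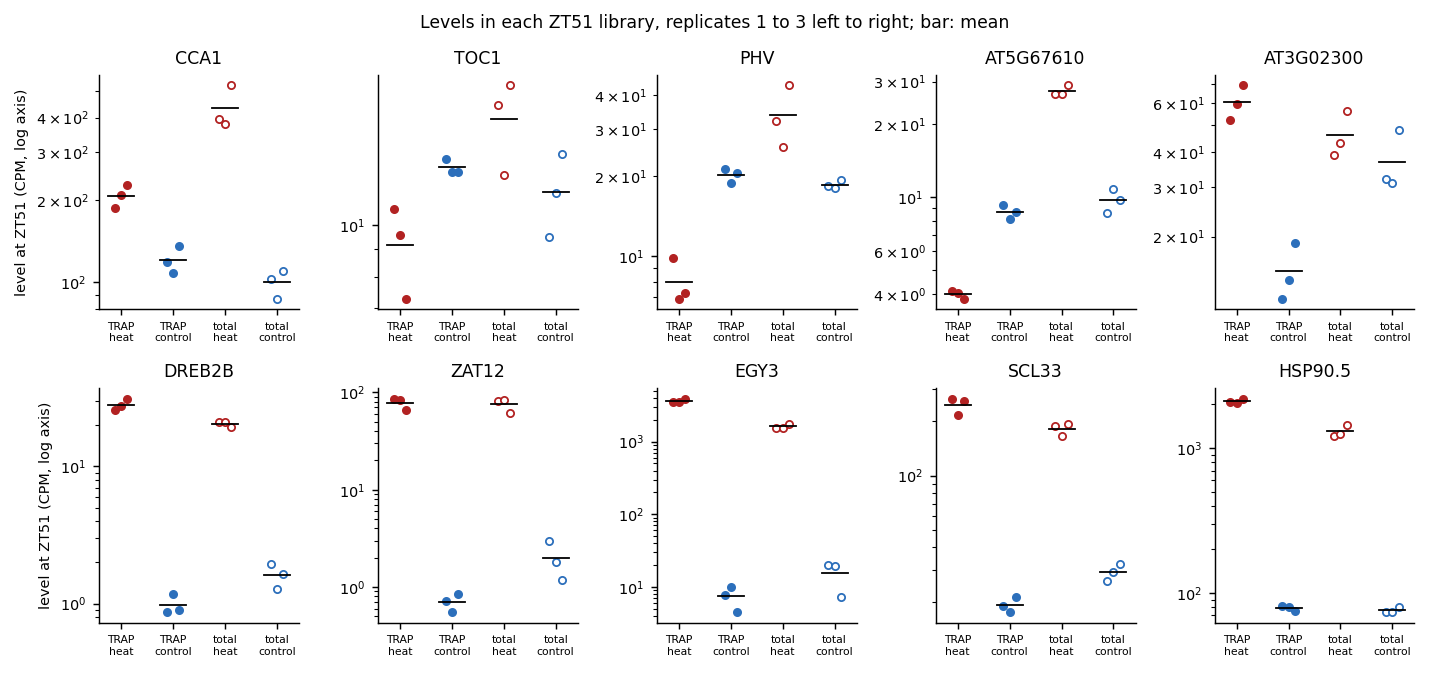
Levels (CPM, log axis) of 10 genes in each ZT51 library, in the groups TRAP heat, TRAP control, total heat and total control; points are replicates 1 to 3 from left to right, bars are means, filled points TRAP and open points total mRNA. PHV falls to 6.93 to 9.80 CPM in TRAP heat, against 18.8 to 21.2 CPM in TRAP control, and stands at 25.7 to 43.7 CPM in total heat, against 18 to 19.3 CPM in total control.

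Only 19 genes met both conditions, a different TRAP heat effect at ZT51 than at other times and than in total mRNA (0.0904% of 21008 genes tested in both). Both conditions use the ZT51 TRAP libraries, so the overlap was not tested. In some of the 19, total mRNA had its own ZT51 difference from the other times in the same direction (edgeR quasi-likelihood test). These were CYP72A8 (1.04, adjusted p = 4.51e-05), AT2G21130 (0.75, adjusted p = 1.32e-04), AT5G42760, AT2G31560, cpHsc70-2, BBX24 and CCA1. In each of the 19, TRAP also differed from total mRNA over the mean of the other times, with the same sign (ZAT12: 1.00, adjusted p = 1.13e-09). Of the 19, 14 had a higher TRAP heat effect in both comparisons, 2 a lower one in both, 2 a higher one than at other times but one below total mRNA, and 1 a lower one than at other times but one above total mRNA. With the harvest block the count was 54 and with the replicate number at each time as a block 36. Both calls held without any 1 library in 6 of the 19: CCA1, CYP72A8, HSP90.5, AR192, AT2G31560 and AT5G42760. The other 13 lost at least 1 call in this way. Without the libraries numbered 3 the count was 5, and 4 of these were among the 19. Then AR192 (0.56, adjusted p = 0.172, against other times) and AT5G42760 (0.67, adjusted p = 0.128, against total mRNA) each lost a call, and HSP90.5 lost both (0.46, adjusted p = 0.0943, against other times, and 0.64, adjusted p = 0.0666, against total mRNA). With libraries thinned to the smallest total of their kind of RNA the count was 7, and 4 of these were among the 19. CYP72A8 (−0.94, adjusted p = 0.0712), AT5G42760 (0.69, adjusted p = 0.38) and HSP90.5 (0.55, adjusted p = 0.119) then lost the call against total mRNA.

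CCA1 (AT2G46830), the morning MYB factor of the clock, had a lower heat effect in both comparisons and the smallest adjusted p against total mRNA among the 19. It had 186, 208 and 226 CPM in TRAP heat and 118, 108 and 135 CPM in TRAP control, against 395, 380 and 526 CPM in total heat and 103, 87.0 and 110 CPM in total control. Heat and control did not overlap in either kind of RNA. The heat effect was 0.78 ± 0.12 in TRAP (adjusted p = 9.36e-08) and 2.12 ± 0.13 in total mRNA (adjusted p = 1.18e-28), so TRAP lay 1.34 ± 0.18 below total on the log2 scale (−1.34, adjusted p = 2.11e-08). Against the other times the TRAP effect differed by −0.65 ± 0.13 (adjusted p = 0.00179). The TRAP effect was 0.69 at ZT48, 0.78 at ZT51, 1.08 at ZT54, 1.56 at ZT57, 1.82 at ZT60, 2.55 at ZT63, 1.33 at ZT66 and 1.00 at ZT69, so ZT48 was lower still. The TRAP below total difference was also seen at the other times, where its mean was −1.44 ± 0.08 (adjusted p = 2.25e-30), and total mRNA had its own lower effect at ZT51 (−0.76 ± 0.14, adjusted p = 1.89e-04). Both calls held without the libraries numbered 3 (−0.64, adjusted p = 0.0207, against other times, and −1.23, adjusted p = 2.08e-05, against total mRNA). LHY (AT1G01060), the partner of CCA1, fell in TRAP by 0.79 ± 0.12 on the log2 scale (−0.79, adjusted p = 7.21e-08) and passed neither comparison.

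The stress transcription factors DREB2B and ZAT12 had the highest differences from other times among the 19. Their promoter windows hold a G-box (DREB2B, chr3:3455175-3455274) or an evening element followed by a heat shock element (ZAT12, chr5:24102642-24102741), and that of the cyclophilin gene AT2G21130 (chr2:9056517-9056616, minus strand) a heat shock element, marked in capitals.
DREB2B: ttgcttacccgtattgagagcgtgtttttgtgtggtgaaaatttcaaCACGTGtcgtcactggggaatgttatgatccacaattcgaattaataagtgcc
ZAT12: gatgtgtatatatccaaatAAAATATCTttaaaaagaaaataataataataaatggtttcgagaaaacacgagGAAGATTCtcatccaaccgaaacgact
AT2G21130: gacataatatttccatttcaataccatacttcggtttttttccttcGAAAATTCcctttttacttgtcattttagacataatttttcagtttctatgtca

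DREB2B (AT3G11020), which binds dehydration-responsive elements, had 25.6, 27.3 and 31.2 CPM in TRAP heat and 0.869, 1.17 and 0.893 CPM in TRAP control, against 20.9, 20.9 and 19.3 CPM in total heat and 1.95, 1.28 and 1.65 CPM in total control. Its TRAP effect of 4.81 ± 0.19 lay 1.34 ± 0.23 above the other times (adjusted p = 1.80e-04) and 1.12 ± 0.31 above total mRNA (adjusted p = 0.0229). The controls differed more between times than the heated level: the TRAP control was lowest at ZT51 (0.978 ± 0.168 CPM) and highest at ZT57 (4.19 ± 0.649 CPM, SD, n = 3 each). The call against total mRNA was lost without total control 1 or 3, TRAP control 1 or 3 or TRAP heat 3 (range 1.01 to 1.30), and without the libraries numbered 3 (0.89, adjusted p = 0.368). ZAT12 (AT5G59820), a zinc finger protein of light and oxidative stress responses, had 86.6, 84.3 and 65.4 CPM in TRAP heat and 0.711, 0.555 and 0.838 CPM in TRAP control, against 81.0, 84.2 and 61.4 CPM in total heat and 2.99, 1.80 and 1.18 CPM in total control. The heated levels were alike in both kinds of RNA and the controls were lower in TRAP. Its effect of 6.78 ± 0.19 lay 1.31 ± 0.26 above the other times (adjusted p = 0.00171) and 1.44 ± 0.36 above total mRNA (adjusted p = 0.00804), the second lost without total control 1 or TRAP control 2 (range 1.15 to 1.67). With libraries thinned to the smallest total of their kind of RNA, ZAT12 stood 0.18 above total mRNA (adjusted p = 0.976). The TRAP control level rested on 33 counts in 3 libraries for ZAT12 and 46 for DREB2B.

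AT2G21130, a cyclophilin-like peptidyl-prolyl isomerase, had 157, 152 and 144 CPM in TRAP heat and 5.92, 5.86 and 3.96 CPM in TRAP control, against 128, 119 and 106 CPM in total heat and 6.50, 7.44 and 5.72 CPM in total control. Its effect of 4.85 ± 0.14 lay 1.03 ± 0.14 above the other times (adjusted p = 7.75e-07) and 0.70 ± 0.18 above total mRNA (adjusted p = 0.00972), the second lost without total control 2 or TRAP control 3 (range 0.49 to 0.77) and without the libraries numbered 3 (0.59, adjusted p = 0.188). Its heated level was low at ZT51, 151 ± 6.43 CPM, against 396 CPM at ZT60, and its control level lowest, 5.25 ± 1.11 CPM, against 41.2 CPM at ZT57 (SD, n = 3). It was the only gene of the 19 to pass also when the other times were ZT48, ZT54 and ZT57 alone.

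HSP90.5, given above against other times, had 1207, 1257 and 1451 CPM in total heat and 74.1, 74.5 and 79.7 CPM in total control. Its TRAP effect lay 0.65 ± 0.15 above that of total mRNA (adjusted p = 0.00440), and the call was lost without both the libraries numbered 3 in each kind of RNA (0.64, adjusted p = 0.0666). AR192 (AT4G26780), a GrpE co-chaperone, had 519, 426 and 565 CPM in TRAP heat and 6.48, 7.40 and 5.14 CPM in TRAP control, against 325, 310 and 368 CPM in total heat and 8.71, 10.3 and 7.61 CPM in total control. Its effect of 6.31 ± 0.16 lay 0.81 ± 0.15 above the other times (adjusted p = 7.87e-04) and 1.09 ± 0.21 above total mRNA (adjusted p = 2.70e-04). CYP72A8 (AT3G14620), a cytochrome P450, had 277, 334 and 323 CPM in TRAP heat and 20.9, 18.6 and 21.1 CPM in TRAP control, against 306, 380 and 453 CPM in total heat and 10.5, 11.7 and 13.6 CPM in total control. Its TRAP effect was higher than at other times by 0.92 ± 0.13 (adjusted p = 1.69e-06) but below that of total mRNA (−1.03 ± 0.22, adjusted p = 0.00116). AT2G31560 lay 0.74 ± 0.13 above the other times (adjusted p = 2.30e-04) and 0.88 ± 0.18 above total mRNA (adjusted p = 5.91e-04), and AT5G42760, annotated as a carboxyl methyltransferase, 0.92 ± 0.14 (adjusted p = 5.99e-06) and 0.85 ± 0.18 (adjusted p = 0.00113).

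The remaining genes of the 19 moved by less or rested on fewer counts. QWRF9 (1.23 and 0.95), AT1G19020 (0.92 and 1.67), cpHsc70-2 (0.58 and 0.51), AT1G33170 (0.57 and 0.75), AT1G75180 (0.48 and 0.64), AT3G59950 (0.45 and 0.59) and AT4G33500 (0.40 and 0.71) had a higher heat effect in both comparisons, the first value being the difference from other times and the second that from total mRNA. CRL2 (0.60 and −0.84) had a heat effect higher than at other times and below that of total mRNA. BBX24 (AT1G06040), a B-box repressor of light responses, had 406, 412 and 441 CPM in TRAP heat and 174, 170 and 158 CPM in TRAP control, against 222, 226 and 218 CPM in total heat and 130, 128 and 114 CPM in total control. It was the gene with an effect lower than at other times (−0.47 ± 0.11, adjusted p = 0.00932) and above total mRNA (0.49 ± 0.14, adjusted p = 0.0305). The F-box gene AT5G49610, lower in both (−2.30 and −2.47), had 4 counts in the 3 TRAP heat libraries together. QWRF9 with every library thinned stood 0.30 above total mRNA (adjusted p = 0.905) and AT5G49610 at −0.59 (adjusted p = 0.949).

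Each of these 10 genes lost at least 1 call without 1 library. Against other times, AT1G19020 lost it without any 1 control or heat 1 (range 0.85 to 0.97), AT1G75180 without control 1, control 2, heat 2 or heat 3 (0.42 to 0.54) and AT4G33500 without any 1 control or heat 2 (0.33 to 0.44). AT3G59950 kept it only when heat 2 was left out (0.36 to 0.53), and CRL2 lost it without control 1, control 3 or heat 2 (0.55 to 0.70). BBX24 lost it without control 1 or heat 1 (−0.52 to −0.43), and AT5G49610 without heat 2 or heat 3 (−2.72 to −2.01). Against total mRNA, BBX24 kept the call only when total control 3, total heat 2, TRAP control 1, TRAP heat 1 or TRAP heat 2 was left out (0.41 to 0.52), and QWRF9 only when total control 1, total heat 1 or 2, TRAP control 3 or TRAP heat 2 was (0.74 to 1.23). The chaperone cpHsc70-2 lost it without total control 3, total heat 1 or 2, TRAP control 2 or TRAP heat 3 (0.45 to 0.62), AT1G33170 without total control 3 or total heat 1 (0.66 to 0.90), and CRL2 without total heat 3 (−0.93 to −0.72). AT1G75180 lost it without total control 3, total heat 2, TRAP control 1 or 2 or TRAP heat 3 (0.55 to 0.75), AT5G49610 without total heat 3 or TRAP heat 2 or 3 (−2.88 to −2.18), and AT3G59950 kept it only when total control 2 or 3, total heat 3 or TRAP heat 2 was left out (0.42 to 0.71).

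Whether the TRAP against total difference was itself larger at ZT51 than at other times was tested as well, and 0 of 22256 genes passed (0%) with edgeR and 0 with DESeq2, while 678 genes had an unadjusted p below 0.05 with edgeR and 669 with DESeq2. The differences found at ZT51 were largely shared by the other times: over the mean of the other 7 times 7338 genes passed (33%, 20% above and 12.9% below). Of the 248 genes with TRAP above total at ZT51, 235 passed there in the same direction (94.8%), and of the 404 below, 392 (97.0%). Their median difference was 0.83 at ZT51 and 0.64 at the other times for the genes above, and −0.97 and −0.88 for the genes below. PHV, for instance, stood at −2.22 at ZT51 and −2.18 over the other times, SCL33 at 1.03 and 1.10, and TOC1 at −0.92 and −1.01. RS31, by contrast, stood at 0.81 and 0.35, with a difference between them of 0.46 ± 0.19 that did not pass (adjusted p = 1). The ZT51 median of genes chosen at ZT51 is a value of the selecting libraries and is given as a description.

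**Figure D5:**
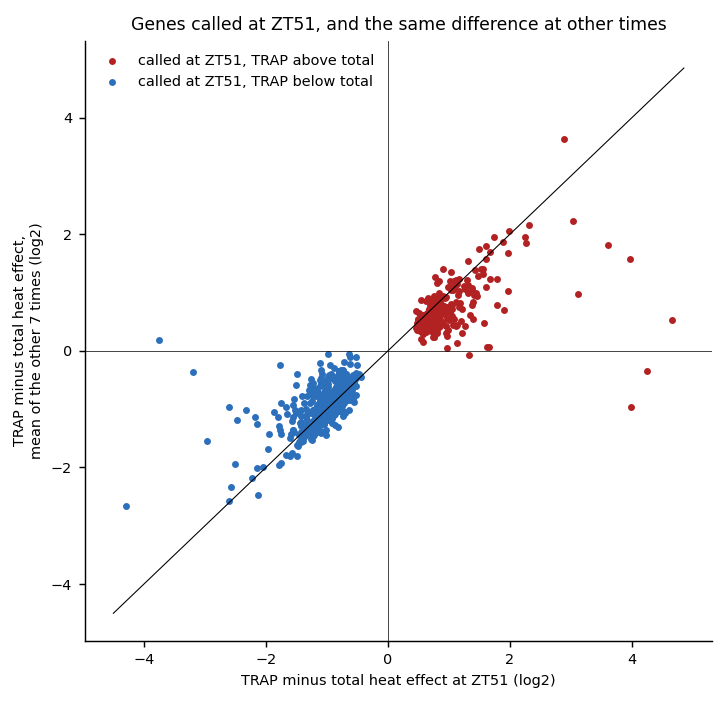
Difference of the heat effect, TRAP minus total mRNA (log2), at ZT51 (x axis) and over the mean of the other 7 times (y axis) for the 652 genes called at ZT51, red above total and blue below; the diagonal marks equal values. Almost all points keep their sign, with medians of 0.83 and 0.64 for the red points and −0.97 and −0.88 for the blue points.

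The called genes were also described by structure and promoter motifs. Genes with TRAP below total had a median transcript of 2386 bases with 9 exons, those above 1748 bases with 4 exons, and all genes tested 1657 bases with 4 exons. Median coding lengths were 1632, 1054 and 1104 bases in the same order. Genes with a higher heat effect at ZT51 than at other times had a median transcript of 1806 bases and lower ones 1604 bases. In the 300 bases upstream of the annotated start, searched on both strands, the evening element AAAATATCT was in 4.61% of the higher genes, 6.94% of the lower genes and 2.85% of all genes. The G-box CACGTG was in 8.55%, 13.9% and 7.82%, the CCA1 site AAAAATCT in 11.2%, 6.94% and 7.70%, and the heat shock element GAANNTTC in 11.2%, 5.56% and 11.4%. For genes with TRAP above and below total the heat shock element was in 13.4% and 10.6%, and the G-box in 8.94% and 9.41%. These shares rest on few genes, 5 with an evening element and 10 with a G-box among the 72 lower genes, and a match of letters is a description of the window.

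Some of the genes overlap other annotated genes, and without a stated strand setting the reads of a pair cannot be told apart. This holds for HSP101, HSFA1B, HSFA3, LNK1, LNK3, LNK4, BAM3, DREB2B, QWRF9, EGY3, AR192, cpHsc70-1, cpHsc70-2, HSP70-3, J2, LHCB1.5, LHCB3, LHCB4.2, CSD3, PHOT2, BBX24, AT1G19020, AT2G31560, AT5G42760, AT1G75180, AT3G59950, AT4G33500 and AT5G49610. It also holds for PTAC17, TUB7 and AT2G39980, and for the overlapping genes marked as such below. Reads of near-identical heat shock and light harvesting genes may likewise have been divided between family members.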

How the data were processed

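The authors deposited 1 table of raw gene counts for the time course, with 1 column per library. Reads were trimmed, checked and aligned with cutadapt, FastQC and HISAT2 2.2.0 against TAIR10, per the submitters' processing notes. The counting tool, its strand setting and any use of molecular identifiers are not given in these sources, and amplified reads without such identifiers are not independent molecules. All 148 libraries are labelled by kind, treatment, time and replicate, 100 belong to the time course, 0 columns were left unmapped, and the recovery experiment was not used. Gene names, coordinates and upstream bases came from RefSeq TAIR10.1 (37751 of 38194 identifiers matched).

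The deposited counts went through edgeR 4.0.16 (robust quasi-likelihood; limma 3.58.1, R 4.3.3) after a filter (minimum count 10, minimum total 15) and TMM scaling. Effects of heat against control at ZT51, and of ZT51 against the mean of the other 7 times, were fitted on the 50 TRAP libraries, and comparisons with total mRNA on all 100. Genes were called at a Benjamini-Hochberg adjusted p below 0.05. CPM values are scaled by TMM.

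The reported fits used group means without pairing. Among the fits, only the alternatives with a replicate block paired libraries by replicate number. Same-numbered ZT51 heat and control libraries correlated in their deviations from group means (0.198, 0.176 and 0.449 in TRAP, 0.307, 0.217 and 0.584 in total mRNA, for numbers 1, 2 and 3). TRAP and total libraries of ZT51 with the same treatment and number correlated by 0.347 to 0.713. Pairing comes from the labels' numbers and this check, which set number 3 apart but not number 1 from 2 between heat and control. TRAP heat 1 correlated with control 2 by 0.346, and TRAP heat 2 with control 1 by 0.197. In total mRNA these values were 0.411 and 0.287. TRAP control 1 correlated by 0.347 with total control 1 and by 0.377 with total control 2. The replicate number is not stated to mark a shared day.

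Genes named were members of 27 lists (527 genes) and the most extreme genes of each comparison (5 or 10 per direction), those called in both comparisons (8 per class), where the mean log2 CPM reached 1. A few were added after their values were seen, namely the remaining genes called in both comparisons and those that differed from ZT48, ZT54 and ZT57. Members and lists were chosen with earlier results of these data known. Alternatives were DESeq2 1.42.0, RLE scaling, a minimum count of 1, no organelle genes and both replicate blocks. Further ones were ZT48, ZT54 and ZT57 as the only other times, an F test over the times and only the groups compared. In others each ZT51 library was left out, or libraries were thinned binomially to the smallest total of their kind of RNA. Leaving out the ZT51 libraries numbered 3 was added after seeing the data.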

Additional observations from a re-analysis of the deposited data

Results flagged for a closer look

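Named genes whose ZT51 TRAP heat effect differed from the mean of the other 7 times by the test of the difference (edgeR quasi-likelihood, adjusted p below 0.05) are given here with that log2 difference, and their explanations were not tested. Among clock and growth genes the difference was −1.44 for LNK1, −1.45 for LNK3, −1.62 for LNK4, −1.43 for PIF4, −1.14 for PIF5, −1.04 for PRR7, −0.65 for CCA1, 1.15 for RVE2, 0.84 for ELF4 and 0.58 for HY5. Among B-box and CDF genes it was −1.45 for COL5, −0.94 for CDF1, −0.55 for CDF3, −1.19 for BBX28 and −0.47 for BBX24. Among chaperones and heat shock factors it was 0.81 for AR192, 0.69 for HSP18.5, 0.58 for HSP70-3, 0.56 for HSP90.3, 0.53 for HSP90.5, 0.43 for J2, 0.58 for cpHsc70-2, 0.44 for cpHsc70-1, 0.85 for HSFA1E and 1.03 for the cyclophilin gene AT2G21130.

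Stress factors stood at 1.34 (DREB2B), 1.31 (ZAT12), 1.52 (CBF3) and −0.59 (TZF1). CBF3 had 1.74, 1.13 and 1.21 CPM in TRAP heat and 1.18, 1.23 and 1.23 CPM in TRAP control, and it lost the call without any 1 of the 6 libraries. Light harvesting, chlorophyll and starch genes stood at −0.55 (LHCB4.2), −0.50 (LHCB1.5), −0.50 (LHCB3), −0.60 (LHCB2.2), −0.52 (CAO), −0.54 (ISA3) and 1.30 (BAM3), and the replication gene MCM2 at −0.72.

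The remaining higher genes were QWRF9 (1.23), AT2G31560 (0.74), AT5G42760 (0.92), CYP72A8 (0.92), CRL2 (0.60), AT1G19020 (0.92), AT5G07330 (1.43), UGT73C1 (1.57), AT3G28270 (1.46), AT2G12190 (1.36), PDX1L4 (1.72) and AT5G42860 (1.62), the neighbouring AT5G66052 (1.51) and AT5G66053 (1.42), and AT4G06665 (1.50), which overlaps BAM3. The remaining lower ones were AT3G53830 (−1.51), AT5G01740 (−1.23), AT1G78265 and UGT85A4 (−1.33 each, an overlapping pair), AT3G53680 (−1.43), AT2G34200 (−1.71) and AT5G49610 (−2.30). AT1G78265 and UGT85A4 had the same mean level and SD in each ZT51 group, such as 3.61 ± 0.569 CPM in TRAP heat. The entries of this pair are therefore not separate results, though both are counted.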

How the results depend on the processing

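Numbers of genes called depended on the setting more than directions did. Heat against control at ZT51 stayed between 9827 and 12765 genes in every alternative. The count of genes differing from the other 7 times, 224, was 28 against ZT48, ZT54 and ZT57 only, 92 without the libraries numbered 3, 132 with libraries thinned to the smallest total, 1484 by the F test over the 8 times, which asks another question, and 134 to 172 without 1 library. The count differing from total mRNA, 652, was 235 without the libraries numbered 3, 141 when thinned, 315 with only the groups compared (fewer samples share the estimate of the spread) and 471 to 711 without 1 library. The replicate block of the harvest raised it to 1378 (728 above, against 248, and 650 below, against 404), and the replicate block within each time raised the genes above to 389. For genes called in both comparisons, 19, the replicate block of the harvest gave 54, the replicate block within each time 36, DESeq2 33, ZT48, ZT54 and ZT57 only 1, the libraries numbered 3 left out 5, thinning 7, and 1 library left out 15 to 23. No other total was moved by over 1.5 times by a block. The cause of these changes was not tested.

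Of 59 named genes that differed from other times, 58 passed with RLE scaling, 56 with DESeq2, 53 with the replicate block within each time, 42 when thinned, 33 without the libraries numbered 3 and 6 against ZT48, ZT54 and ZT57 only. There LHCB1.5 (0.03) and LHCB3 (0.02) reversed from −0.50 each, and neither passed. Of 48 named genes that differed from total mRNA, 48 passed with DESeq2, RLE scaling and either block, 30 with only the groups compared, 24 without the libraries numbered 3 and 19 when thinned. Control levels near 1 CPM, as for DREB2B and ZAT12, rest on 46 and 33 counts over 3 libraries and limit the precision of their fold changes.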

Other observations

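Against ZT48, ZT54 and ZT57 alone, the heat effect at ZT51 was higher in 23 and lower in 5 of 21079 genes (edgeR quasi-likelihood test). These genes included functions not described above. GSTU19, a glutathione transferase, had 10013, 8016 and 9708 CPM in TRAP heat and 484, 499 and 513 CPM in TRAP control. MT2A, a metallothionein, had 796, 774 and 778 CPM in heat and 202, 188 and 206 CPM in control. PTAC17, a plastid protein, had 183, 159 and 181 CPM in heat and 19.2, 18.7 and 20.3 CPM in control. In these 3 genes heat and control did not overlap. The 5 lower genes were TBL25, TUB7, EXL3, AT3G06070 and AT2G39980. These genes were listed because they passed, and no function was tested for them.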
